A study of Mus musculus with 12 samples.

Results

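Mouse macrophages that had rested for 88 h after an earlier exposure to lipopolysaccharide (LPS) were compared with macrophages that had rested for 16 h, both after the same LPS rechallenge. The samples were chosen by their titles, 3 arrays of the long rest (the recovered group) against 3 arrays of the short rest (the tolerant group), which is 6 of the 12 arrays of the series, and every gene measured was taken. All cells were macrophages grown for 7 days in L929-conditioned medium from the bone marrow of female C57BL/6 mice aged 6 to 8 weeks. Tolerant cells received LPS for 8 h, rested for 16 h and received LPS again for 4 h. Recovered cells received the same 8 h of LPS, rested for 88 h and received the same 4 h of LPS. The treatment protocol gives the long rest as 2 to 4 days, and the sample descriptions give it as 88 h. The other groups, of 3 arrays each, were acute cells, which received LPS once for 4 h, and untreated cells. A group of cells kept as long in culture without the earlier LPS was not analysed here, so the length of rest and the length of culture cannot be told apart.

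LPS is the outer-membrane lipid of Gram-negative bacteria. Macrophages sense it through TLR4 and CD14, which signal through MyD88 to NF-kB and inflammatory cytokines, and through TRIF to IRF3, interferon-beta and the genes that interferon induces. Macrophages that meet LPS again soon after an earlier exposure make less of many inflammatory cytokines, a state called endotoxin tolerance, while other genes keep or raise their response.

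Each array measured 1 RNA sample in a single colour. Values are log2 processed signals after every array was shifted to the same 75th percentile, called log2 scaled signal here, and differences are recovered minus tolerant on that scale, given with their standard error (SE). A spot was well above background by the scanner software's own test, which 47.8 to 50.4% of spots passed on the tolerant arrays and 50.2 to 51.1% on the recovered arrays. Arrays of 1 group correlated across genes at r from 0.985 to 0.993, and recovered with tolerant arrays at r from 0.963 to 0.978. Tolerant and recovered replicates 2 shared a slide and replicates 3 shared another, but tolerant replicate 1 lay on a different slide from recovered replicate 1. Replicate 3 of every group lay on that other slide and was scanned on a different day from replicates 1 and 2. The macrophage markers Csf1r, Adgre1, Cd68, Itgam, Lyz2, Mertk, Fcgr1, Spi1, Cd14 and Tyrobp were well above background on all 12 arrays.

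A gene entered the test if, in any of the 4 groups, the 3 arrays all showed a probe for it well above background, a condition that 28056 of 55681 probes met. Of 20463 genes tested, 9229 (45.1%) were called at an adjusted p under 0.05 with limma, with the replicate number as a block. Of these, 5165 (25.2% of the genes tested) were higher after the long rest and 4064 (19.9%) were lower. Without the block, 4211 genes (20.6%) were called, 2249 higher (11%) and 1962 lower (9.59%), and all 4211 were among the 9229. Most differences were small. The difference passed 2-fold in 1288 of the higher and 902 of the lower genes, 4-fold in 182 and 136, and 8-fold in 22 and 27. In 9006 genes (44%) the 3 tolerant and 3 recovered arrays did not overlap. On the slide that held tolerant replicate 2 and recovered replicates 1 and 2, 5152 of the 5165 higher genes and 4062 of the 4064 lower genes kept their direction. On the slide of replicates 3 these counts were 5162 and 4056, and since the same arrays made the calls, both pairs of counts are descriptions. The median difference over all genes was 0.09. Higher genes made up 56% of the calls with this scaling, 46.8% with quantile normalization, 45.3% with the authors' own normalized values and 62.6% with normexp background correction, so the split between higher and lower depends on the normalization. Tested genes comprised 14264 named reference genes, 2763 long intergenic RNA loci and 3436 other transcripts.

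**Figure D1:**
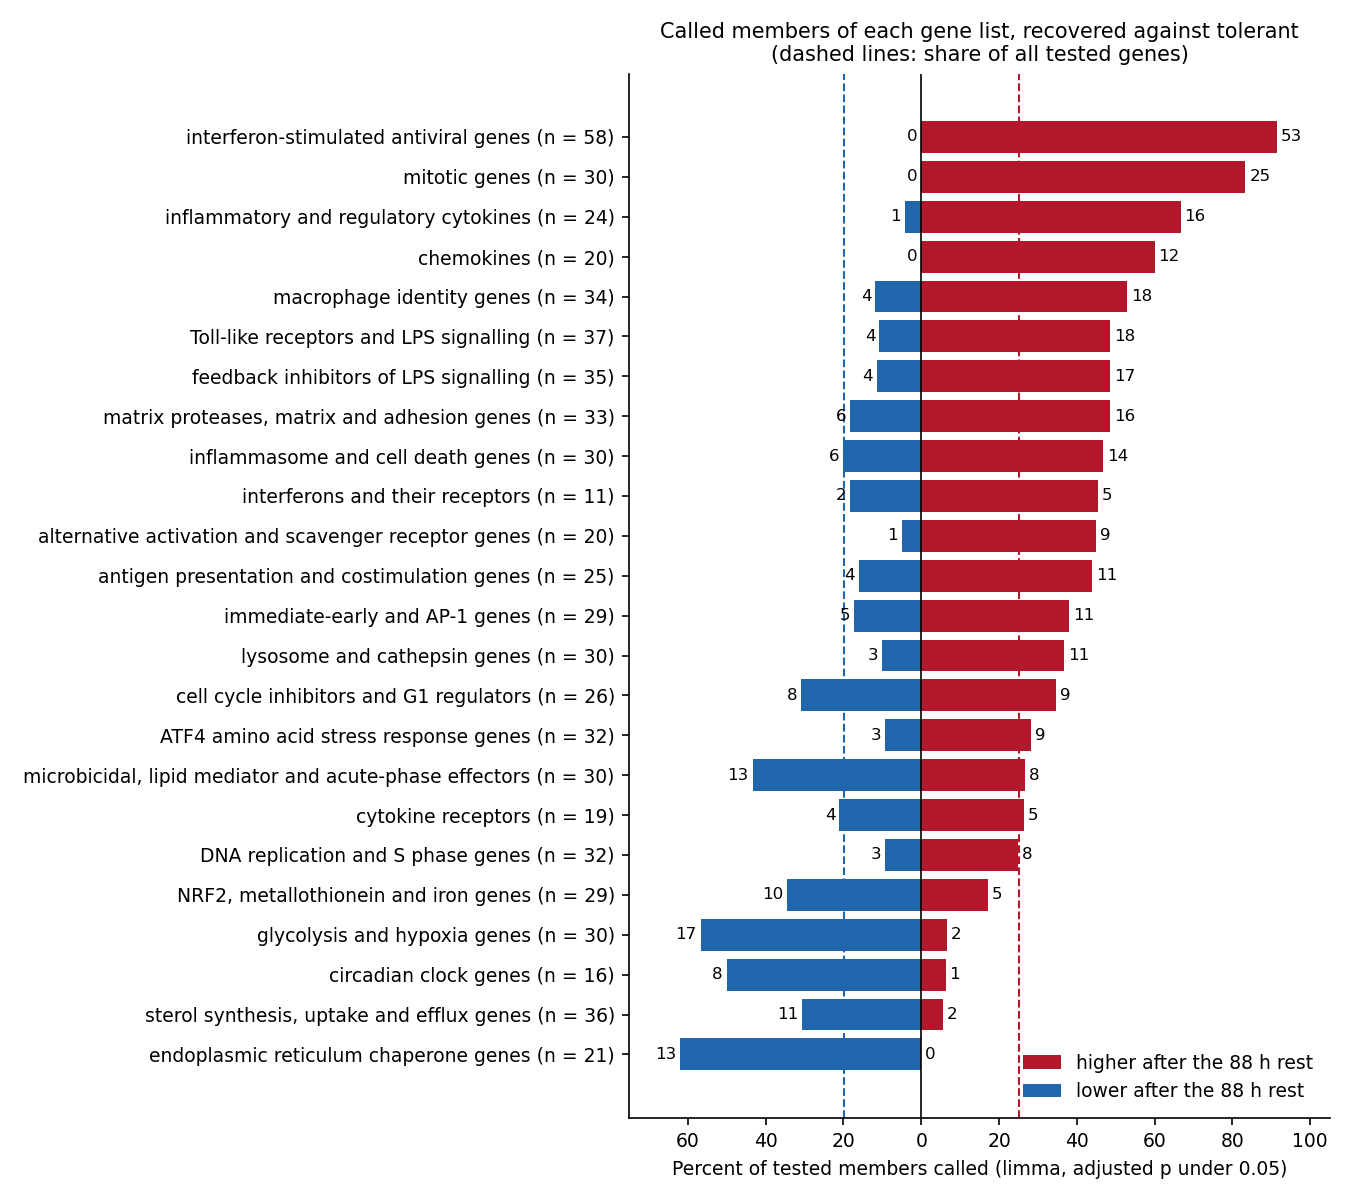
Percent of the tested members of each of 24 gene lists called higher (red, to the right) or lower (blue, to the left) after the 88 h rest, with the number of genes at the end of each bar and dashed lines at the shares of all tested genes, 25.2% and 19.9%. Interferon-stimulated antiviral genes, with 53 of 58 higher, stand at the top, and endoplasmic reticulum chaperones, with 13 of 21 lower, at the bottom.

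Read against that background, the lists separated into a set that was mostly higher after the long rest, a set that was mostly lower and a set near the background, as the plot of called members per list shows. The spread within a list was wide for most of them, which the plot of single members shows.

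**Figure D2:**
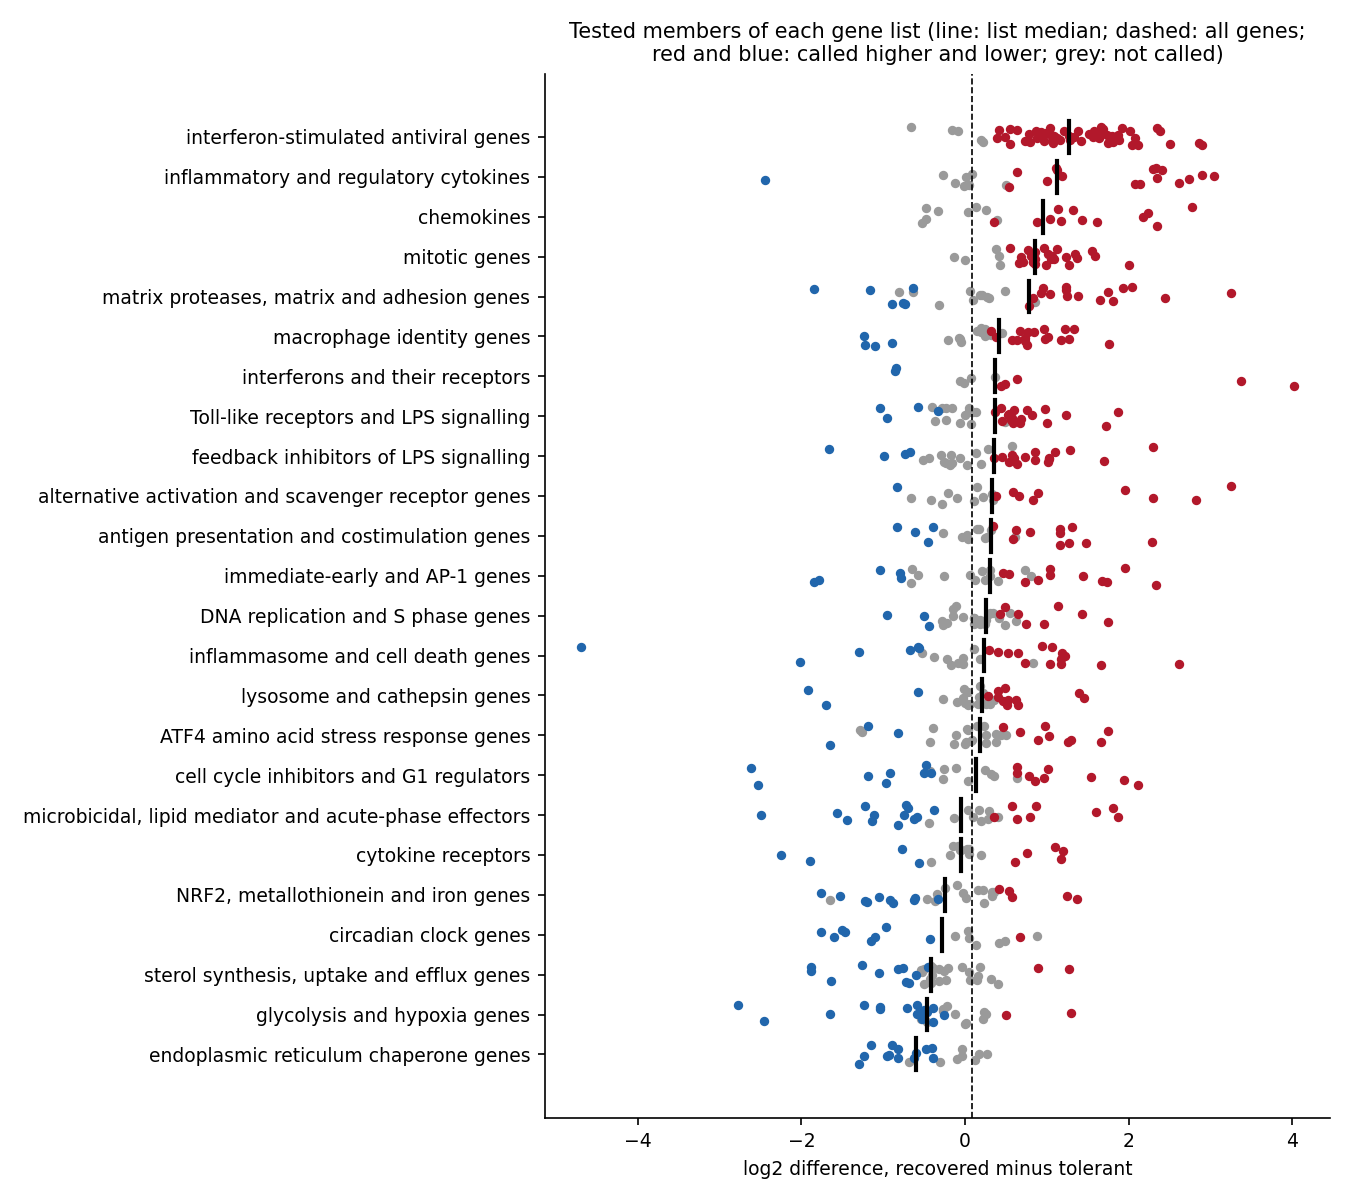
Log2 difference (recovered minus tolerant, horizontal axis) of every tested member of the 24 lists, 1 point per gene, red and blue where called higher and lower and grey where not called, with the list median as a thick line and the median of all genes, 0.09, dashed. List medians run from -0.59 for endoplasmic reticulum chaperones to 1.28 for interferon-stimulated antiviral genes, and Bmf, at -4.70, is the lowest point.

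Cytokine genes were higher after the long rest for the most part. Of 24 inflammatory and regulatory cytokines tested, 16 were higher and 1 was lower (median difference 1.12; 13 higher and 1 lower without the block). Il27, which encodes a subunit of interleukin-27, was at 11.04, 10.73 and 11.08 on tolerant arrays 1, 2 and 3 and at 14.05, 13.61 and 14.34 on the recovered arrays. All 3 recovered values lay above all tolerant values, and the difference of 3.05 (SE 0.18, adjusted p = 1.6e-05) was the largest of the list. Tnf, the early inflammatory cytokine, was at 15.29, 15.23 and 15.91 in tolerant and 17.61, 17.20 and 17.85 in recovered cells, a difference of 2.08 (SE 0.19, adjusted p = 8.3e-05). Il6 was at 14.60, 14.29 and 12.97 in tolerant and 16.99, 16.01 and 15.89 in recovered cells, a difference of 2.34 (SE 0.34, adjusted p = 0.00086). The groups did not overlap for either gene, and the tolerant value of replicate 3 was the lowest of Il6. Il19, of the interleukin-10 family, rose by 2.90 (SE 0.20), Edn1, the endothelin-1 precursor, by 2.74 (SE 0.40) and Tnfsf15, a ligand of the TNF family, by 2.62 (SE 0.19). Il10, which dampens inflammation, rose by 1.19 (SE 0.20, adjusted p = 0.0018). Il12b, which encodes the p40 chain of interleukin-12, rose by 1.13 (SE 0.36, adjusted p = 0.030). Neither call held without the block (adjusted p = 0.061 and 0.088), and that of Il12b was also lost without recovered replicate 1 (difference 0.65), tolerant replicate 1 or tolerant replicate 3. Csf2, which encodes GM-CSF, was the single called cytokine that fell, at 7.78, 7.22 and 7.13 in tolerant and 5.28, 4.12 and 5.41 in recovered cells (difference -2.44, SE 0.32, adjusted p = 0.00047), and is named here after its values were seen.

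Il1b, which encodes interleukin-1 beta, did not pass the test. Its level was 14.08, 15.22 and 13.85 in tolerant and 14.87, 14.09 and 14.16 in recovered cells, so the groups overlapped (difference -0.01, SE 0.36, adjusted p = 0.98). Il1b was above acute cells by 1.66 (SE 0.36) in tolerant and by 1.65 (SE 0.36) in recovered cells. For the cytokines as a list, tolerant cells were higher than acute cells in 3 and lower in 15 of the 24 genes (median -1.09), and recovered cells were higher in 5 and lower in 2 (median 0.06). Over all genes, 21.6% were higher and 22.9% lower in tolerant than in acute cells, and 5.98% were higher and 4.75% lower in recovered than in acute cells. These contrasts share the tolerant, recovered and acute arrays with one another, and their values stand side by side as a description.

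**Figure D3:**
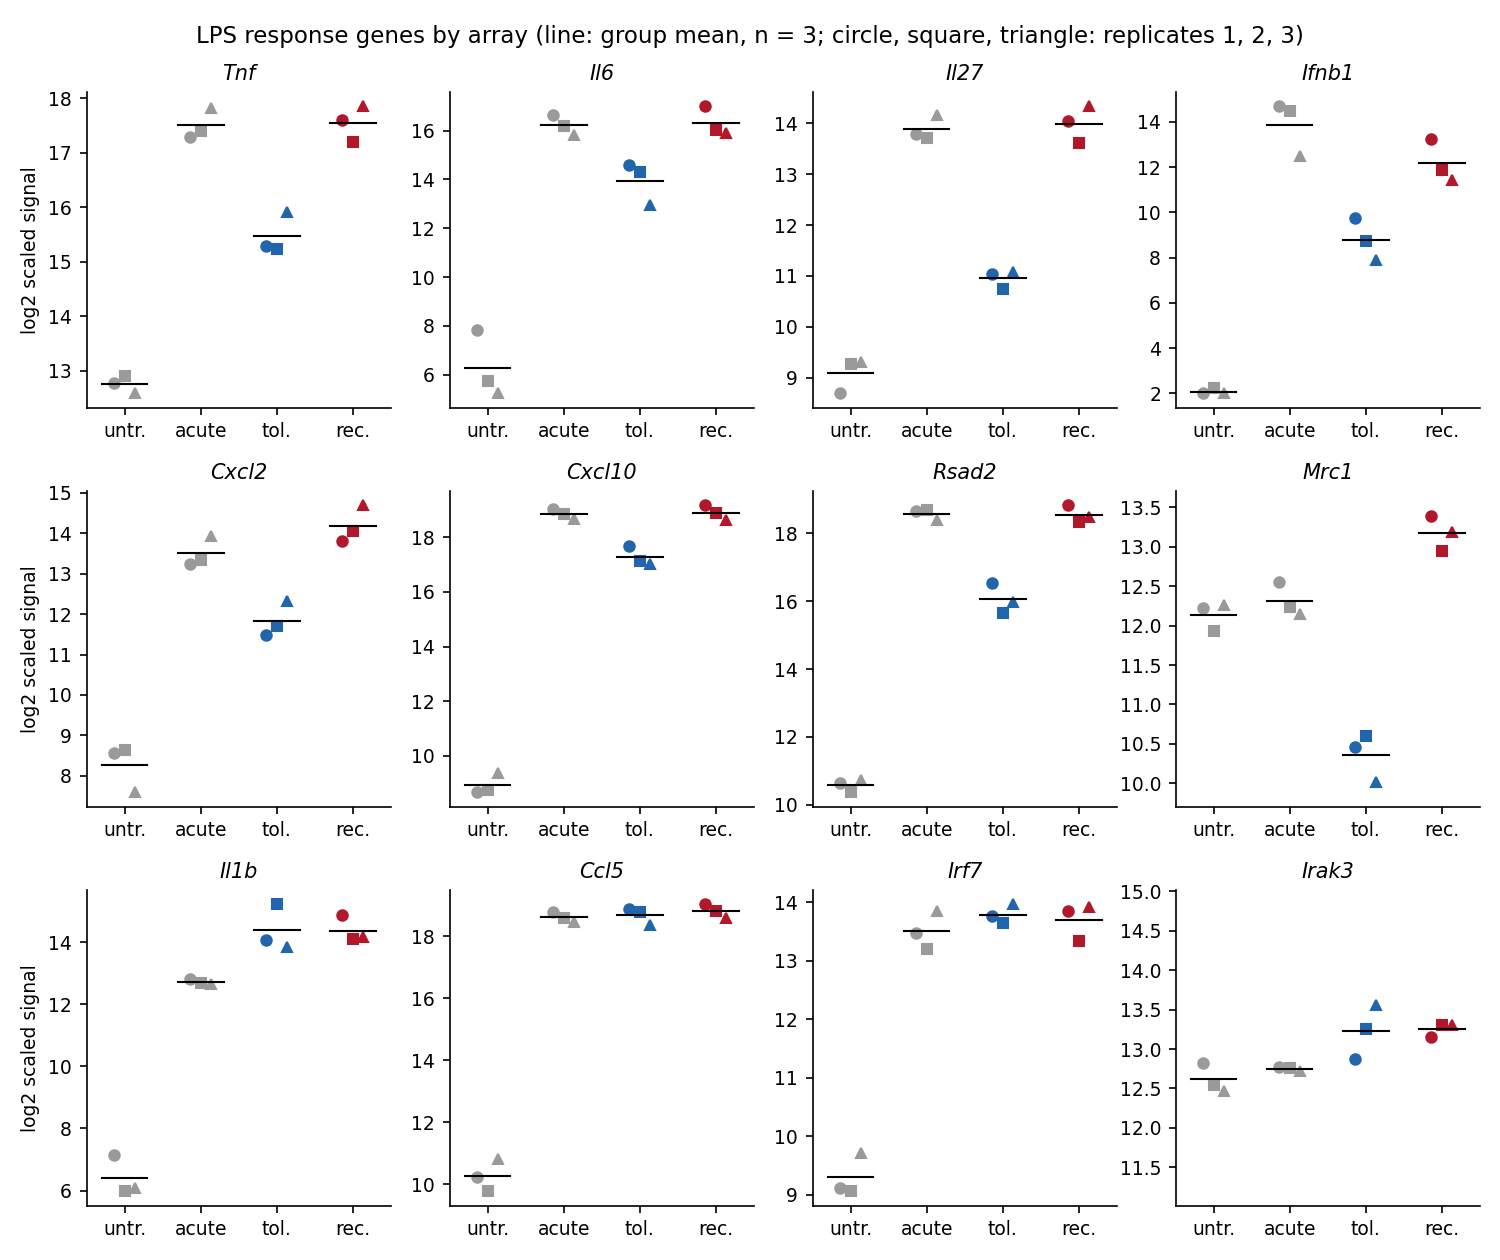
Log2 scaled signal on each of the 12 arrays for 12 LPS response genes, with replicates 1, 2 and 3 as circles, squares and triangles, tolerant cells in blue, recovered cells in red and the group mean of 3 arrays as a line. In Tnf, Il6, Il27, Ifnb1, Cxcl2, Cxcl10, Rsad2 and Mrc1 the recovered arrays lie above all tolerant arrays, and in Il1b, Ccl5, Irf7 and Irak3 the groups overlap.

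Ifnb1, the interferon-beta gene on chromosome 4, was among the largest rises of the panel. It was at 9.76, 8.72 and 7.90 in tolerant and 13.22, 11.87 and 11.41 in recovered cells, with no overlap (difference 3.37, SE 0.40, adjusted p = 0.0003), and below acute cells by 5.08 (SE 0.40) in the former and by 1.71 (SE 0.40) in the latter. Of 11 interferon and interferon receptor genes tested, 5 were higher and 2 lower (2 and 2 without the block, and between 2 and 4 higher when 1 array was left out, the lowest count without tolerant replicate 1; 3 higher with the slide as the block or with no filter on dim probes). Ifngr2 and Ifnar1, chains of the interferon-gamma and type I interferon receptors, both fell by 0.85 (SE 0.14 and 0.10, adjusted p = 0.0017 and 0.00029). Ifng, which encodes interferon-gamma, was not well above background on any tolerant array, at 2.40, 4.04 and 2.78, and was so on all 3 recovered arrays, at 7.88, 7.30 and 6.11. Ifng is counted among the 5 higher genes. It entered the test only through the recovered arrays, the group in which it is high. Its call is therefore not given as support. The level of Ifng was at least 6.70-fold higher after the long rest. This bound sets the recovered mean against the lowest signal that passed as well above background on the tolerant arrays, or the probe's own signal where higher. It and the later bounds of this kind hold only under the scanner software's own background subtraction. Lymphocytes and natural killer cells are a known source of interferon-gamma. Of 11 lymphocyte markers on the array, 7 were not well above background on any tolerant or recovered array, among them Cd3g, Cd2, Cd8a, Ms4a1, Klrb1c and Ncr1, and the summed signal of the list ranged from 4980 to 5920 in tolerant and from 5620 to 6580 in recovered cells. Nkg7 was at a mean of 11.72 in tolerant and 12.01 in recovered cells, Cd3e at 10.35 and 10.72 and Cd79b at 9.07 and 6.66. Their part in the Ifng value was not tested. In RNA of whole cultures, fewer cells of a type and less RNA per cell cannot be told apart.

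Interferon-stimulated antiviral genes had the largest share of members called in a single direction among the 24 lists. Of 58 tested, 53 were higher after the long rest and 0 were lower (47 and 0 without the block; 51 to 52 higher when 1 array was left out), and the list median was 1.28. Cmpk2, a mitochondrial nucleotide kinase, was at 14.80, 14.15 and 14.44 in tolerant and 17.61, 17.12 and 17.23 in recovered cells (difference 2.85, SE 0.14, adjusted p = 1.6e-05). Rsad2, which encodes the antiviral enzyme viperin, was at 16.54, 15.65 and 15.96 in tolerant and 18.83, 18.35 and 18.48 in recovered cells (difference 2.50, SE 0.17, adjusted p = 2.2e-05). Both rose in all 3 pairs without overlap of the groups. Iigp1, an immunity-related GTPase, rose by 2.90 (SE 0.29) and Ifit2, which binds foreign RNA, by 2.39 (SE 0.15). The 5 members that did not pass were Irf7, Ifitm1, Bst2, Ifitm3 and Oas3. Irf7, the transcription factor that drives later interferon genes, was at 13.76, 13.64 and 13.96 in tolerant and 13.85, 13.33 and 13.92 in recovered cells (difference -0.09, SE 0.13, adjusted p = 0.59). Against acute cells, 51 of the 58 were lower and 1 higher in tolerant cells (median -1.32), and 1 was lower and 1 higher in recovered cells (median -0.03).

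With the authors' own normalized values in place of the scanner signals, the count of higher antiviral genes fell to 25, that of cytokines to 9 and that of chemokines to 4. That table lists 169 of the tested genes, 16 of them on the antiviral list, at the lowest value of untreated array 3 (2.58). Tnf is one of the 169, at 2.58 on that array but at 14.74 and 15.08 on untreated arrays 1 and 2. Fitted over the 9 LPS-treated arrays alone, an alternative added after the data were seen, the same table gave 52 antiviral genes, 16 cytokines and 11 chemokines higher. The calls of Tnf, Il27, Cmpk2, Rsad2, Ifit2, Iigp1, Cxcl1, Cxcl2, Cxcl10, Ccl7 and Ccl12 were lost in the fit of 12 arrays and made in that of 9. The same held for Ptgs2, Nos2, Acod1, Nlrp3, Edn1, Ccnd2, Il15ra, Mmp13, Rgs16, Tap1, Phgdh and Zbtb46, which are named below or above.

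Promoter sequence was set beside these lists because interferon and NF-kB act through short DNA motifs. The 250 bases before the start of each gene were taken from RefSeq (GRCm38.p6), which held an entry for 11034 of the 14264 reference genes tested. The motifs were searched on both strands, the interferon-stimulated response element as GAAANNGAAA, a kB motif as GGGANTTTCC and the endoplasmic reticulum stress element as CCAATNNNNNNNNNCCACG. The response element was in 3.46% of all 27025 symbols with an entry, in 135 of 2424 genes called higher (5.57%), in 72 of 2765 called lower (2.6%) and in 171 of 5845 not called (2.93%). Of 45 antiviral genes with an entry, 19 held it (42.2%). The kB motif was in 0.414% of all symbols, in 22 of the genes called higher (0.908%), 12 of those called lower (0.434%) and 24 of those not called (0.411%). It was in the promoters of the chemokines Cxcl1, Cxcl2 and Cxcl3 and of the cytokines Il6 and Csf1. The following promoters are shown as examples of called genes whose promoters hold a motif, 5′ to 3′ on the strand of the gene, with the matched motif in capitals. Rsad2 (chr12:26456453-26456702, minus strand) and Gbp5 (chr3:142496684-142496933, plus strand), an antiviral GTPase with a difference of 2.04, hold the response element read on the opposite strand, and Gbp5 also holds a kB motif. Cxcl2 (chr5:90903649-90903898, plus strand) and Il6 (chr5:30012864-30013113, plus strand) hold a kB motif. The motifs do not overlap in any of them.
Rsad2: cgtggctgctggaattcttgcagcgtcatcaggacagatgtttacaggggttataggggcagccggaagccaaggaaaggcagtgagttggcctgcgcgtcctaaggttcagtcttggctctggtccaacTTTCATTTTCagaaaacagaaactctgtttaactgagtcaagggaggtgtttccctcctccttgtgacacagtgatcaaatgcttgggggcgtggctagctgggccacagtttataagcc
Gbp5: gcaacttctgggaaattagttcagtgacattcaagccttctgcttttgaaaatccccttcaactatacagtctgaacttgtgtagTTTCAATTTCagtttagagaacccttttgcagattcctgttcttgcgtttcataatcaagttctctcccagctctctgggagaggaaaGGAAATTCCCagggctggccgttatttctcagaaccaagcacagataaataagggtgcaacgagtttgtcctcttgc
Cxcl2: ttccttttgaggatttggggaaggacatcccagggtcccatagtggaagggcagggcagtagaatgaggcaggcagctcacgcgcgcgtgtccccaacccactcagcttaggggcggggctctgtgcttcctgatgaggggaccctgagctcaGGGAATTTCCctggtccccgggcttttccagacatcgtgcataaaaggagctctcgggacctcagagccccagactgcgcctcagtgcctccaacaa
Il6: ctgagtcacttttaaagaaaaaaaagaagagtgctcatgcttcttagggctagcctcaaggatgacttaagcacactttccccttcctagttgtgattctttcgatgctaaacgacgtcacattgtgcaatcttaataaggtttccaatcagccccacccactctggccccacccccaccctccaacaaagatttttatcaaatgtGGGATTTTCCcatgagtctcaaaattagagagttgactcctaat
A match is a description of letters, not of a bound site.

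Chemokines, which recruit leukocytes, were higher in 12 and lower in 0 of 20 genes tested (median 0.96; 9 and 0 without the block). Cxcl2, a neutrophil attractant, was at 11.48, 11.70 and 12.34 in tolerant and 13.81, 14.05 and 14.69 in recovered cells (difference 2.35, SE 0.34, adjusted p = 0.00081). Ccl12, a monocyte attractant, was at 12.20, 11.24 and 10.63 in tolerant and 14.79, 13.70 and 13.91 in recovered cells (difference 2.78, SE 0.19, adjusted p = 2.2e-05). In both genes each recovered array lay above each tolerant array. Cxcl1 rose by 2.24 (SE 0.19), Ccl7 by 2.17 (SE 0.23) and Cxcl10, an interferon-induced attractant of T cells, by 1.61 (SE 0.23). Ccl5 was at 18.89, 18.80 and 18.37 in tolerant and 19.04, 18.83 and 18.61 in recovered cells, so the groups overlapped (difference 0.14, SE 0.24, adjusted p = 0.66). Against acute cells, 11 chemokines were lower and 5 higher in tolerant cells, and 0 were lower and 5 higher in recovered cells.

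Of 37 genes for Toll-like receptors and LPS signalling, 18 were higher and 4 lower (median 0.36; 10 and 2 without the block; 12 higher without tolerant replicate 3). Tlr3, the receptor for double-stranded RNA, was at 8.26, 7.86 and 7.74 in tolerant and 10.26, 9.56 and 9.67 in recovered cells (difference 1.87, SE 0.12, adjusted p = 1.9e-05). The NF-kB subunit genes Rel and Nfkb1 rose by 1.72 (SE 0.18) and 1.24 (SE 0.13). Tlr4 rose by 0.76 (SE 0.13, adjusted p = 0.0017, but 0.067 without the block), and its co-receptor gene Cd14 by 0.68 (SE 0.11, adjusted p = 0.0017). Traf3, an adaptor that restrains part of NF-kB signalling, was at 12.20, 12.40 and 12.10 in tolerant and 11.23, 11.58 and 10.77 in recovered cells, a fall of 1.04 (SE 0.15, adjusted p = 0.00073).

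Feedback inhibitors of the pathway were higher in 17 and lower in 4 of 35 genes (median 0.36; 12 and 2 without the block). Cish, of the SOCS family, rose by 2.30 (SE 0.17), Socs1 by 1.70 (SE 0.13) and Tnfaip3, the ubiquitin-editing enzyme A20, by 1.29 (SE 0.14). Irak3, an inhibitory kinase-like protein named in studies of tolerance, was at 12.88, 13.26 and 13.56 in tolerant and 13.15, 13.30 and 13.30 in recovered cells, with overlap (difference 0.02, SE 0.17, adjusted p = 0.92). Socs3 differed by 0.36 (SE 0.12, adjusted p = 0.032), a call that was lost without the block (adjusted p = 0.079), with quantile normalization and without any 1 of recovered replicates 2 and 3 and tolerant replicates 1 and 3. Inpp5d, which encodes the phosphatase SHIP1, was at 13.25, 13.25 and 12.83 in tolerant and 11.75, 11.81 and 10.80 in recovered cells, a fall of 1.66 (SE 0.21, adjusted p = 0.00044). Called inhibitors thus lay on both sides of the comparison, but mostly on the higher side. Of all genes tested, 25.2% were higher and 19.9% lower.

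Microbicidal, lipid mediator and acute-phase effectors split. Of 30 tested, 8 were higher and 13 lower after the long rest (6 and 8 without the block). The higher count was 5 with quantile normalization, 2 with the authors' values over 12 arrays and 5 with those over 9. Ptgs2, the inducible cyclooxygenase, rose by 1.87 (SE 0.23), Ch25h, which makes 25-hydroxycholesterol, by 1.81 (SE 0.24, adjusted p = 0.00056, but 0.086 without the block) and Nos2, the inducible nitric oxide synthase, by 1.60 (SE 0.28). Acod1, which makes itaconate, rose by 0.79 (SE 0.21, adjusted p = 0.014), and this call was lost with quantile normalization and without recovered replicate 1, tolerant replicate 3 or all arrays of replicate 2 or 3. Lcn2, the iron-sequestering protein lipocalin-2, was at 13.72, 13.71 and 14.82 in tolerant and 11.02, 10.94 and 12.83 in recovered cells. The groups did not overlap, and Lcn2 fell by 2.49 (SE 0.61, adjusted p = 0.010), although with the authors' values it was not called (difference -2.38, adjusted p = 0.374). Arg1, a marker of alternative activation, was not well above background on all 3 arrays of any group and was not tested.

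Several genes of the alternative activation, scavenger receptor and macrophage identity lists were higher after the long rest. Of 20 alternative activation and scavenger receptor genes tested, 9 were higher and 1 lower (6 and 1 without the block). Arg1, Retnla, Cd163, Irf4, Lyve1, Timd4 and Cd209b of that list were on the array but were not tested. Mrc1, the mannose receptor, was at 10.46, 10.60 and 10.02 in tolerant and 13.39, 12.95 and 13.19 in recovered cells (difference 2.82, SE 0.16, adjusted p = 1.6e-05), and its recovered level was above acute cells by 0.87 (SE 0.16). Folr2, a folate receptor of tissue macrophages, was at 12.58, 12.47 and 12.93 in tolerant and 15.02, 15.06 and 14.79 in recovered cells (difference 2.29, SE 0.27). Both genes differed without overlap. Fn1, fibronectin, rose by 3.25 (SE 0.36), with 1 of 3 tolerant arrays well above background, and Klf4 by 1.96 (SE 0.14). Of 34 macrophage identity genes, 18 were higher and 4 lower (12 and 2 without the block). The complement receptor gene C5ar1 rose by 1.33 (SE 0.16) and Apoe, a lipid carrier, by 1.27 (SE 0.12). Aif1 fell by 1.23 (SE 0.12, adjusted p = 0.00011, but 0.088 without the block).

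Antigen presentation and costimulation genes were higher in 11 and lower in 4 of 25 (8 and 2 without the block, and 7 higher with the authors' values over 12 arrays). Tnfsf4, which encodes the costimulatory OX40 ligand, rose by 2.29 (SE 0.24), Nlrc5, an activator of MHC class I genes, by 1.47 (SE 0.13) and the peptide transporter gene Tap1 by 1.30 (SE 0.13). Cd86 rose by 1.27 (SE 0.29, adjusted p = 0.0076), but not without the block (adjusted p = 0.15). Of 19 cytokine receptor genes, 5 were higher and 4 lower, and without the block 5 and 2. These counts were near the background of all genes tested (25.2% higher and 19.9% lower). Il15ra and Il7r rose by 1.20 (SE 0.24) and 1.18 (SE 0.14). Il6ra, the interleukin-6 receptor, was at 11.59, 11.53 and 11.62 in tolerant and 9.0, 9.52 and 9.48 in recovered cells, a fall of 2.25 (SE 0.16, adjusted p = 2.3e-05). Il2ra fell by 1.90 (SE 0.37, adjusted p = 0.0034, but 0.13 without the block).

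Inflammasome and cell death genes were higher in 14 and lower in 6 of 30 (9 and 4 without the block). Nlrp3, the inflammasome sensor, was at 8.69, 9.06 and 9.21 in tolerant and 10.73, 10.48 and 10.73 in recovered cells (difference 1.66, SE 0.19, adjusted p = 0.00023), and Tnfsf10, the death ligand TRAIL, rose by 2.62 (SE 0.24). Nlrp1b, another sensor, fell by 2.02 (SE 0.33, adjusted p = 0.0015). Bmf, a pro-apoptotic BH3-only protein, was at 7.11, 7.04 and 7.18 in tolerant cells and was not well above background on any recovered array, at 2.04, 2.07 and 3.13. It was at least 6.57-fold lower after the long rest (adjusted p = 1.6e-05 in the fit).

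Mitotic genes were higher after the long rest in 25 and lower in 0 of 30 tested (median 0.86; 18 and 0 without the block). Ccnb2, cyclin B2, was at 9.71, 8.81 and 8.86 in tolerant and 11.34, 11.35 and 10.72 in recovered cells (difference 2.01, SE 0.16, adjusted p = 4.8e-05). The mitotic motor genes Cenpe and Kif11 rose by 1.59 (SE 0.13) and 1.37 (SE 0.31) and the mitotic kinase gene Plk1 by 1.56 (SE 0.20). Against acute cells, 22 of the 30 were lower and 0 higher in tolerant cells, and 0 were lower and 1 higher in recovered cells. DNA replication genes stayed near the background, with 8 higher and 3 lower of 32 (4 and 0 without the block; 5 higher with no filter on dim probes; 5 to 13 higher when 1 array was left out, the lowest without recovered replicate 1). Among them Ccne1, cyclin E1, rose by 1.75 (SE 0.16), Mcm10 by 1.43 (SE 0.17), Rfc3 by 1.14 (SE 0.11) and Tyms by 0.97 (SE 0.21). The median difference of the mitotic list was 1.38 on the slide that held replicate 2 and recovered replicate 1, and 0.69 on that of replicates 3. For DNA replication genes these medians were 0.62 and -0.07.

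Regulators of the G1 phase went both ways, with 9 higher and 8 lower of 26 (7 and 4 without the block; 5 lower without recovered replicate 1). Ccnd2, cyclin D2, rose by 2.11 (SE 0.22) and Ccng2 by 1.95 (SE 0.24). Cdkn2b, the cyclin-dependent kinase inhibitor p15, was at 10.04, 10.27 and 9.15 in tolerant and 7.40, 8.26 and 6.23 in recovered cells, a fall of 2.52 (SE 0.37, adjusted p = 0.00089). Sesn1, a stress-induced regulator of growth signalling, was at 11.53, 11.28 and 10.68 in tolerant and 8.28, 9.02 and 8.35 in recovered cells, a fall of 2.61 (SE 0.20, adjusted p = 3.7e-05). The groups did not overlap for these genes.

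**Figure D4:**
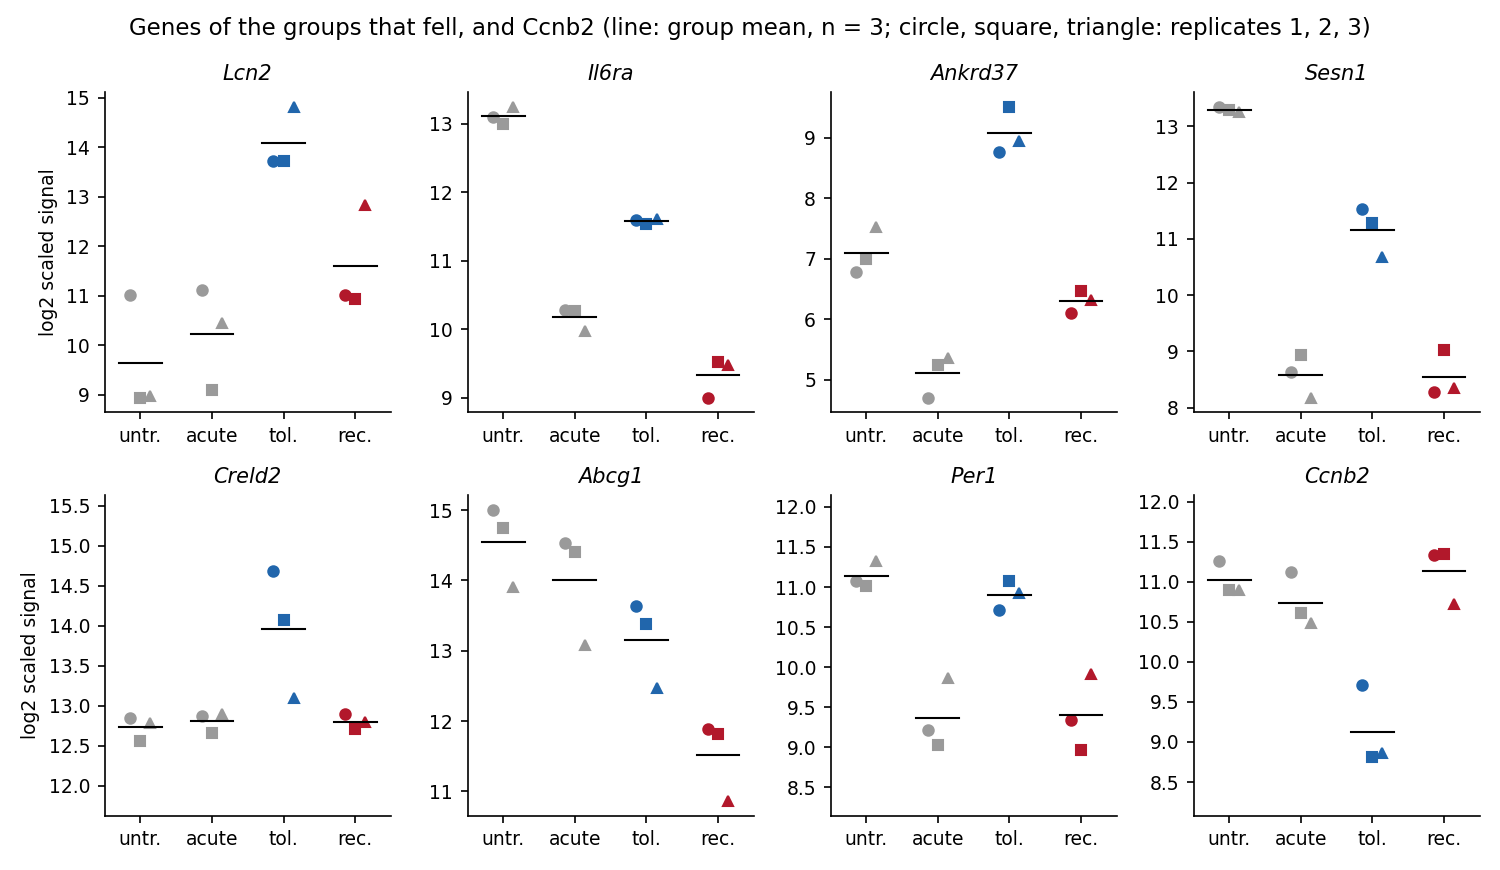
Log2 scaled signal on each of the 12 arrays for Lcn2, Il6ra, Ankrd37, Sesn1, Creld2, Abcg1 and Per1, which were lower after the 88 h rest, and for Ccnb2, which was higher, with replicates 1, 2 and 3 as circles, squares and triangles and the group mean of 3 arrays as a line. Creld2 in tolerant cells runs from 13.10 on replicate 3 to 14.69 on replicate 1, and the recovered arrays lie between 12.71 and 12.90.

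Of 30 glycolysis and hypoxia genes, 17 were lower and 2 higher (median -0.46; 10 and 2 without the block). Ankrd37, a hypoxia-induced gene, was at 8.76, 9.52 and 8.96 in tolerant and 6.10, 6.48 and 6.33 in recovered cells (difference -2.78, SE 0.18, adjusted p = 1.9e-05). Egln3, an oxygen-sensing prolyl hydroxylase, was at 6.16, 6.82 and 7.09 in tolerant and 3.5, 4.83 and 4.36 in recovered cells, with 1 of 3 recovered arrays well above background (difference -2.46, SE 0.43). The groups of Ankrd37 did not overlap. Egln3, counted among the 17, entered the test only through the tolerant arrays, the group in which it is high, so its call is not given as support. Ddit4, an inhibitor of mTORC1 signalling, fell by 1.65 (SE 0.35, adjusted p = 0.0055, but 0.077 without the block). Pfkp, the platelet-type phosphofructokinase, rose by 1.30 (SE 0.13). Tolerant cells were above acute cells in 20 and below in 4 of these 30 genes, and recovered cells in 8 and 3.

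Sterol synthesis, uptake and efflux genes were lower in 11 and higher in 2 of 36 (median -0.42; 7 and 2 without the block), with 18 lower by the authors' values over 12 arrays and 17 with normexp background correction. Abcg1, a cholesterol exporter, was at 13.64, 13.38 and 12.46 in tolerant and 11.89, 11.82 and 10.86 in recovered cells, a fall of 1.64 (SE 0.12, adjusted p = 2.4e-05), and lay below acute cells by 0.85 in the former and 2.49 in the latter (SE 0.12 each). The stearoyl-CoA desaturase genes Scd2 and Scd1 both fell by 1.88 (SE 0.40 and 0.67, adjusted p = 0.0057 and 0.045), and the Scd1 call was lost without the block (adjusted p = 0.17) and in 13 other settings, among them the omission of any 1 of the 6 arrays except recovered replicate 3.

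Endoplasmic reticulum chaperone genes, which fold secreted proteins, were lower in 13 and higher in 0 of 21 (median -0.59), but in 4 without the block, and in 5 to 15 when 1 array was left out, the lowest count without recovered replicate 1. The count was 8 with the slide as the block, 4 from the 6 arrays alone and 6 with no filter on dim probes. Sdf2l1 was at 13.14, 12.74 and 11.61 in tolerant and 11.34, 11.19 and 11.26 in recovered cells (difference -1.23, SE 0.28, adjusted p = 0.0074). Creld2, an induced chaperone, was at 14.69, 14.07 and 13.10 in tolerant and 12.90, 12.71 and 12.79 in recovered cells (difference -1.15, SE 0.28, adjusted p = 0.0096). In both, the recovered arrays were close together, the tolerant arrays were spread and tolerant replicate 3 lay nearest the recovered level. Both calls were lost when all arrays of replicate 1 or of replicate 2 were left out. The list median was -0.64 on the slide of tolerant replicate 2 and recovered replicates 1 and 2, and -0.07 on that of replicates 3. Herpud1 fell by 1.29 (SE 0.41, adjusted p = 0.031), a call lost without recovered replicate 1 (difference -0.77) and without any other 1 of the 6 arrays except recovered replicate 3. Dnajb9 fell by 0.96 (SE 0.19, adjusted p = 0.0038), and both calls were lost without the block (adjusted p = 0.13 and 0.072). Hspa5, which encodes the central chaperone BiP and is named after its values were seen, was at 16.38, 16.10 and 15.00 in tolerant and 16.26, 16.05 and 15.98 in recovered cells and did not pass (adjusted p = 0.27). The endoplasmic reticulum stress element was found in 0.13% of all symbols. It was in 7 of 2765 genes called lower (0.253%), 2 of 2424 called higher (0.0825%) and 12 of 5845 not called (0.205%). Of 18 members of the list with an entry, 8 held it (44.4%). Creld2 (chr15:88819396-88819645, plus strand) was among them, with the element on the opposite strand.
Creld2: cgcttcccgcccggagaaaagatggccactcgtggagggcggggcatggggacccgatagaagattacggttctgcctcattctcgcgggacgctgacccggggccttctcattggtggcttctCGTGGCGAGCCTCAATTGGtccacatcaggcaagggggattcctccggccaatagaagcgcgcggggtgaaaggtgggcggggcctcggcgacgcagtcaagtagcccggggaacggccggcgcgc

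Genes of the amino acid stress response driven by ATF4 were higher in 9 and lower in 3 of 32, near the background, and in 2 and 1 without the block (3 higher without recovered replicate 3 and 4 with no filter on dim probes). Ppp1r15a, which restores translation after stress, rose by 1.75 (SE 0.17, adjusted p = 0.00012). Asns and Phgdh, enzymes of asparagine and serine synthesis, rose by 1.29 (SE 0.31) and 1.66 (SE 0.53), and neither call held without the block (adjusted p = 0.23 and 0.16). The Phgdh call was also lost without any 1 of recovered replicates 2 and 3 (difference 1.09 without replicate 3) and tolerant replicates 1 and 2. Both lay below acute cells in each group, Asns by 3.16 in tolerant and by 1.87 in recovered cells (SE 0.31 each). NRF2, metallothionein and iron genes were lower in 10 and higher in 5 of 29 (5 and 2 without the block). Osgin1, an oxidative stress gene, was at 10.13, 10.54 and 10.97 in tolerant and 8.53, 8.89 and 8.93 in recovered cells (difference -1.76, SE 0.16, adjusted p = 7.4e-05). Nqo1 fell by 1.53 (SE 0.18, adjusted p = 0.00027, but 0.098 without the block). The transferrin receptor gene Tfrc rose by 1.37 (SE 0.15) and the metallothionein gene Mt2 by 1.25 (SE 0.27).

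Lysosome and cathepsin genes were higher in 11 and lower in 3 of 30 (7 and 3 without the block, and 7 higher without tolerant replicate 3), but the higher count was 5 under quantile normalization, and likewise 5 by the authors' values, over 12 or over 9 arrays. Atp6v0d2, a proton pump subunit, rose by 1.45 (SE 0.17) and Ctsk, cathepsin K, by 1.39 (SE 0.14). Tfeb, the transcription factor known to drive lysosome genes, was at 8.49, 8.43 and 9.21 in tolerant and 6.15, 7.05 and 7.17 in recovered cells, a fall of 1.92 (SE 0.20, adjusted p = 0.00015), and Acp5 fell by 1.70 (SE 0.14). Matrix and adhesion genes were higher in 16 and lower in 6 of 33 (13 and 3 without the block, and 10 higher with the authors' values over 12 arrays), with rises of 2.44 (SE 0.33) in F3, the coagulation initiator tissue factor, 2.04 (SE 0.30) in the collagenase gene Mmp13 and 1.93 (SE 0.21) in Spp1, osteopontin.

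Immediate-early and AP-1 genes were higher in 11 and lower in 5 of 29 (6 and 3 without the block; 2 lower without recovered replicate 1 or with no filter on dim probes, and 3 from the 6 arrays alone). Rgs16, a brake on G protein signalling, rose by 2.34 (SE 0.30), and Batf3 fell by 1.78 (SE 0.22). The 2 probes of Fosl2 were called in opposite directions (-1.85 for the brighter probe and 0.99 for the other), so its direction is uncertain. Circadian clock genes were lower in 8 and higher in 1 of 16 (4 and 0 without the block; 5 lower without recovered replicate 1 or from the 6 arrays alone). Per1, a clock repressor that is also induced by glucocorticoids and stress, was at 10.71, 11.07 and 10.93 in tolerant and 9.33, 8.96 and 9.92 in recovered cells, a fall of 1.50 (SE 0.19, adjusted p = 0.00042). Bhlhe40 fell by 1.60 (SE 0.27). Nr1d1 and Per2 were well above background on 0 of 3 recovered arrays and on 1 and 2 of 3 tolerant arrays, and their calls (differences -1.46 and -1.76) did not hold with normexp background correction, where Nr1d1 was at 0.071, nor in the absence of recovered replicate 1, tolerant replicate 1 or tolerant replicate 2. Per2 was at -2.66 without recovered replicate 3 and at -1.15 without tolerant replicate 2. The time of day at which cells were collected was not given in the sources used here.

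Among single genes, the 12 largest rises and the 12 largest falls were mostly of dim genes that passed from background to signal or back, as the plot of these genes by array shows. Mycl, an L-Myc transcription factor gene on chromosome 4, was at 3.54, 2.72 and 3.5 in tolerant cells, with no array well above background, and at 8.59, 7.82 and 7.54 in recovered cells. By the kind of bound used for Ifng, it was at least 12.4-fold higher after the long rest (adjusted p = 1.6e-05). Inhbb, an activin subunit, was at least 12.2-fold higher, Pax4 at least 6.62-fold, Tnfaip6, a hyaluronan-binding protein, at least 3.64-fold, Angpt1, angiopoietin-1, at least 3.49-fold and Fbn1, fibrillin-1, at least 3.42-fold higher. Of the rises measured on all arrays of both groups, Lhx2, a LIM homeobox factor, was at 9.62, 8.68 and 8.48 in tolerant and 12.83, 12.47 and 12.72 in recovered cells (difference 3.75, SE 0.29). Plagl1, an imprinted zinc finger gene, rose by 3.48 (SE 0.29) and Hopx by 3.45 (SE 0.21). Robo2 and F13a1, each with 1 of 3 tolerant arrays well above background, rose by 3.49 (SE 0.56) and 3.43 (SE 0.47). Lhx2, Plagl1 and Hopx stood below acute cells by 3.69, 4.41 and 3.95 in tolerant cells (SE 0.29, 0.29 and 0.21), and differed from acute cells by 0.06, -0.93 and -0.49 in recovered cells, where the test was not passed (adjusted p = 0.92, 0.07 and 0.17).

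**Figure D5:**
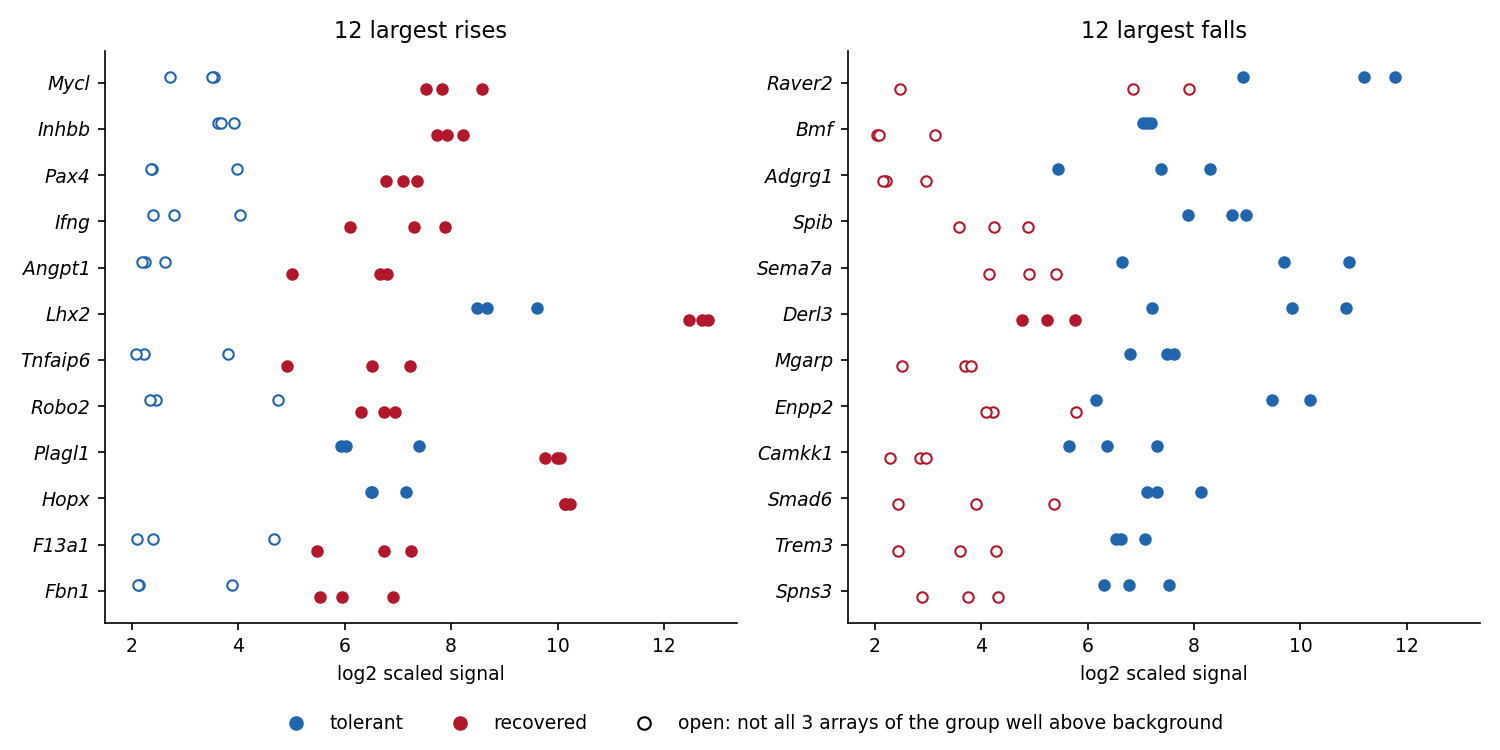
Log2 scaled signal (horizontal axis) on the 3 tolerant (blue) and 3 recovered (red) arrays for the 12 genes with the largest rises (left) and falls (right), open points where not all 3 arrays of that group were well above background. The groups do not overlap in any of the 24 genes, which the choice of genes required, and 9 of the rises and 11 of the falls have open points in the lower group.

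Of the falls, Sema7a, a semaphorin, was at 10.91, 9.69 and 6.64 in tolerant and 5.40, 4.90 and 4.14 in recovered cells (difference -4.27, SE 0.46, adjusted p = 0.00018), and Spib, a PU.1-related transcription factor gene, was at 8.98, 8.71 and 7.88 in tolerant and 4.89, 4.24 and 3.58 in recovered cells (difference -4.29, SE 0.27, adjusted p = 1.9e-05). Sema7a was well above background on 2 of 3 recovered arrays and Spib on 1 of 3. Derl3, which acts in endoplasmic reticulum protein degradation, was at 10.85, 9.83 and 7.21 in tolerant and 5.23, 4.76 and 5.76 in recovered cells (difference -4.05, SE 0.74). In Sema7a and Derl3 the tolerant value of replicate 3 was far below the other two. Adgrg1, Mgarp, Spns3, Trem3 and Camkk1 were not well above background on any recovered array and were at least 6.27-fold, 7.52-fold, 5.53-fold, 5.08-fold and 4.12-fold lower. Enpp2, which encodes the lysophosphatidic acid-producing enzyme autotaxin, fell by 3.90 (SE 0.49) while Smad6, an inhibitor of BMP signalling, differed by -3.61 (SE 0.79), each with 1 of 3 recovered arrays well above background. Smad6, Adgrg1, Mgarp, Trem3 and Egln3 entered the test only through the tolerant arrays, and Robo2, F13a1 and Ifng only through the recovered arrays. That is the group in which each is high, so the fit's p-values of these genes are not given as support. Raver2 headed the falls at -4.88 on its brighter probe, but its other probe rose by 0.50, so its direction is uncertain. Differences of such dim genes depend on how background is removed. With normexp background correction Mycl differed by 2.14, Inhbb by 2.00, Ifng by 1.59, Bmf by -1.39 and Spib by -2.00, all still called and in the same direction. For Mycl, Inhbb, Ifng and Bmf these log2 differences are smaller than the fold bounds given above, so those bounds do not hold under normexp correction.

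Markers of other cell types were checked as whole lists. Of 10 neutrophil markers on the array, 5 were not well above background on any tolerant or recovered array, and the summed signal ranged from 7990 to 10900 in tolerant and from 7540 to 8040 in recovered cells. The defining granule genes Ltf and Ngp and the receptor gene Cxcr2 were among the 5. Of the 4 that were tested, S100a8 fell by 1.11 (SE 0.24), Mmp8 by 1.84 (SE 0.39) and Camp by 0.59 (SE 0.21), and Elane rose by 0.52 (SE 0.11). The calls of Mmp8, Camp and Elane were lost without the block, and that of Camp also without any 1 of the 6 arrays except recovered replicate 1. These values stand beside the fall of Lcn2, and their part in it was not tested. The erythroid and platelet sum ranged from 11700 to 25400 in tolerant and from 35400 to 51300 in recovered cells, and Pf4, at means of 14.12 and 15.36, is its brightest probe. Gp9, a platelet gene of the same list, went the other way, from a mean of 5.39 to 3.02 with no recovered array well above background, while Klf1, Alas2 and Itga2b were not above background on any of the 6 arrays. The mast cell, basophil and eosinophil sum ranged from 359 to 489 in tolerant and from 2550 to 2890 in recovered cells. Hdc, histidine decarboxylase, which macrophages also induce after LPS, was at means of 8.53 and 11.38, while Cpa3, Mcpt8, Fcer1a, Epx and Ms4a2 were at background on all 6 arrays. Kit was called higher by 0.97, with 0 tolerant arrays and 1 recovered array well above background. Its call was lost without the block, from the 6 arrays alone and with the authors' values. Prg2 was well above background on 1 recovered array. Of 9 fibroblast and stromal markers, 4 were at background, including Col1a1 and Pdgfra, and the sum ranged from 537 to 632 and from 551 to 869. Fbn1, named above among the largest rises, is on that list and is its only called member. It was at means of 2.71 and 6.13, with 0 tolerant and 3 recovered arrays well above background. The other members tested, Col1a2, Pdgfrb, Sparc and Dcn, were not called. Dendritic cell sums ranged from 88800 to 98700 and from 93500 to 103000, with Flt3, Dpp4, Xcr1 and Clec9a at background. Siglech, at means of 16.46 and 16.55, is the brightest probe of that list, so the sum says little of its other members. Of the 4 members tested, only Zbtb46 was called, higher by 1.185 (adjusted p = 0.00055), at means of 9.37 and 10.56. Ccr7 differed by -1.19 and Fscn1 by 0.21, and neither passed (adjusted p = 0.12 and 0.638). Ccr7 was well above background on 3 tolerant arrays and 1 recovered array. Endothelial sums ranged from 7760 to 9370 in tolerant and from 10400 to 14800 in recovered cells, with Tek and Emcn at background. In that list Kdr rose by 0.52 (SE 0.13), while Pecam1 fell by 0.60 (SE 0.15) and Cdh5 by 0.89 (SE 0.28). The calls of Kdr and Pecam1 were lost without the block, that of Kdr also without recovered replicate 1 or tolerant replicate 3, and that of Cdh5 without any 1 of the 6 arrays except tolerant replicate 3. Macrophage marker sums ranged from 799000 to 922000 and from 979000 to 1110000. The part of these lists in the values above was otherwise not tested.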

How the data were processed

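Total RNA was hybridised to single-colour Agilent arrays (12 arrays, 3 per group). Per the file headers, the deposited scanner files hold spot intensity that Agilent Feature Extraction 10.7.3.1 had background subtracted and detrended, with no scaling between arrays. The authors' matrix holds log2 values with equal medians across arrays; per the submitters' processing notes limma was used, and the other steps are not given in the sources used here.

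Of 62976 spots 59305 were not controls and carried 55681 probes. Outlier spots were left out and 0 spots were saturated. The intensity was put on a log2 scale, each array was shifted to a common 75th percentile, and probes well above background on all 3 arrays of a group were kept (28056). The brightest probe stood for a gene; 5347 genes had several probes, and in 87 they were called in opposite directions. Symbols came from RefSeq (GRCm38.p6), matched by accession (26529 probes), symbol (3921) or synonym (805); 24426 probes were not matched.

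All 12 arrays entered 1 model in limma 3.58.1 (R 4.3.3), with group and replicate number as a block (6 residual and 3.18 prior degrees of freedom), two-sided tests and Benjamini-Hochberg adjustment over all genes tested. The series describes 3 independent experiments and the titles number the replicates alike. After removal of group means, same-numbered recovered and tolerant arrays correlated at r of 0.312, 0.295 and 0.616, and all 18 same-numbered pairs at 0.275 to 0.773. Among differently numbered recovered and tolerant arrays, tolerant 2 with recovered 1, on the same slide, was at 0.244. Tolerant 1 with recovered 2 was at 0.162, and pairs of a replicate 3 with another number were at -0.44 to -0.355. Whether each experiment used separate animals is not given in the sources used here; if not, p-values measure only the spread between these samples. The number of arrays limits the precision. Tested on simulated data, the model recovered 14% of genes changed by 0.5, 68% by 1, 98% by 2 and 98% by 3 (log2), with 9 false calls among 20463 genes.

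Named genes were the 12 largest rises and falls among called reference genes that were well above background in the higher group, without overlap and alike in 3 pairs, up to 4 called members per list and a panel of 20 genes. The members and lists were chosen with earlier results of these data known. Figures used Python with matplotlib 3.10.9. Alternatives covered the block, the arrays fitted, background correction, normalization, the authors' values, the filter, probe choice, the variance prior and leaving out arrays. Results for some listed genes are not reported here.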

Additional observations from a re-analysis of the deposited data

How the results depend on the processing

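The same-numbered arrays were paired by the numbers in their titles (correlations of their deviations are given with the methods). For replicate 3 the number cannot be told apart from slide or scan day. Without the block 4211 genes were called, 2249 higher and 1962 lower. Leaving out 1 array or 1 replicate number gave 5114 to 8433 calls, 2821 to 4737 higher and 2293 to 3696 lower, the lowest of each without replicate 3 in all groups, a fit with fewer arrays. With the slide as the block, the 6 recovered and tolerant arrays alone, normexp background, quantile normalization, the authors' values (12 or 9 arrays), no filter or a stricter filter, the mean of probes, a variance trend or array weights, the 3 counts stayed within 1.5 times. The genes that changed sign, with the value before or after called, were Nr1d1 with normexp background (0.071), Raver2 where only its dimmer probe passed the stricter filter (0.50), Per2 within the slide of replicates 3 (0.52) and the macrophage marker Csf1r, uncalled before, with the authors' values over 12 and over 9 arrays (-0.30). The cause was not tested for Nr1d1, Per2 and Csf1r. Promoter motifs searched on the gene strand alone gave 2.85% of higher, 1.34% of lower and 1.54% of uncalled genes with the interferon response element. Dim signal limits the size of the largest differences, and small changes are often missed at 3 arrays a group.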

Other observations

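Families that share a name stem (10 or more tested genes, chosen after their values were seen), in which list members were kept, gave these counts. Zinc finger genes named Zfp were lower after the long rest in 164 and higher in 31 of 330 (89 and 19 without the block, and 177 and 28 under quantile normalization), against 19.9% lower and 25.2% higher of all genes. Genes for mitochondrial ribosome proteins (Mrpl) were lower in 23 and higher in 0 of 50, and those for complex I of the respiratory chain (Nduf) in 22 and 0 of 47, with medians of -0.29 and -0.26 (9 and 5 lower without the block, 32 and 39 under quantile normalization, and 31 and 34 in the authors' table). Intraflagellar transport genes (Ift), which build cilia, were lower in 10 and higher in 1 of 14 (8 and 0 without the block), and autophagy genes (Atg) in 10 and 2 of 16 (5 and 0 without the block). Annexins (Anxa) were higher in 6 and lower in 0 of 10, and ligands of the TNF family (Tnfsf) in 8 and 1 of 10. Tnfsf4, Tnfsf10 and Tnfsf15, already named as rises in the lists, are among those 8. Genes named Rpl, a stem of cytosolic ribosome proteins, were higher in 16 (18.6%) and lower in 0 of 86 with this scaling. That higher share lay below the 25.2% of all genes. The counts were 1 and 1 under quantile normalization and 1 and 2 in the authors' table. Genes named Rps were higher in 17 and lower in 2 of 58, but in 2 and 3 with either alternative.

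Long intergenic RNA loci were higher in 1067 and lower in 186 of 2763 (358 and 77 without the block, 845 and 230 under quantile normalization, and 782 and 222 in the authors' table). Olfactory receptor genes (Olfr) were higher in 50 and lower in 1 of 118 (17 and 0 without the block). With all tested genes divided into 5 equal groups by brightness, 1023 were higher and 496 lower in the dimmest group (median 0.27). From there to the brightest group the counts were 1224 and 765 (median 0.19), 1049 and 1029 (median -0.01), 865 and 1073 (median -0.09), and 1004 and 701 (median 0.08). Long intergenic RNA loci were higher more often than lower in each of the 5 groups, from 274 and 53 in the dimmest to 52 and 11 in the brightest.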
